A study of Mus musculus with 18 samples.

Results

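The genes described here are 8 of the 54532 genes in a count table of mouse gastrocnemius, the large calf muscle: Cdkn1a, Cdkn1b, Cdkn1c, Gadd45a, Gadd45b, Gadd45g, Ccng1 and Mdm2. They were taken by name as genes of cell-cycle arrest and of the Gadd45 stress response and the rule that names them uses no measured value, although the choice was made with earlier results of these data known. All 8 passed the filter on low counts and stood among the 17833 genes tested. Cdkn1a, Cdkn1b and Cdkn1c encode p21, p27 and p57, the Cip/Kip proteins that bind and inhibit cyclin-dependent kinases. Gadd45a, Gadd45b and Gadd45g encode small acidic proteins induced by stress, which bind partners such as PCNA, the kinase CDK1 and MAP kinase kinase kinases. Mdm2 encodes the ubiquitin ligase that removes p53, and Ccng1 encodes cyclin G1, an atypical cyclin. Cdkn1a, Gadd45a, Ccng1 and Mdm2 are textbook targets of p53. In skeletal muscle, p21, p27 and p57 are known for holding differentiating myoblasts out of the cell cycle, and Gadd45a and Cdkn1a are known to be induced in mouse muscle that is immobilised, denervated or starved.

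The study asked how muscle without Zfp697, a zinc finger protein, responds when load is removed and given back. Libraries came from female C57BL/6 mice labelled either as a conditional knockout of Zfp697 in skeletal muscle (mKO) or as flox/flox (flox), which the design text calls wild type. Each genotype had 3 libraries from controls in conventional cages, 3 after 10 days of hindlimb unloading and 3 after 3 days of reloading, which gives 6 groups and 18 libraries. The age of the mice and the driver of the Cre recombinase are not given in the sources used here. Nothing in the labels states whether a group's 3 libraries are from different mice, so p-values measure the spread between these libraries, which may be technical.

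Total counts ran from 45069595 to 51592566 per library, and between 22341 and 23418 genes had a count. Levels are given as CPM, library-scaled counts with TMM factors that ran from 0.952 to 1.09. Zfp697 itself did not separate the genotypes outside reloading. It stood at 1.05, 1.31 and 1.25 CPM in mKO controls against 1, 0.984 and 1.6 CPM in flox controls, and at 2.47, 1.09 and 1.41 CPM in unloaded mKO muscle against 1.58, 1.74 and 1.61 CPM in unloaded flox muscle. After reloading it stood at 1.6, 1.95 and 1.47 CPM in mKO muscle, all below the 2.79, 2.33 and 2.57 CPM of flox muscle, a log2 fold change of -0.61 ± 0.25 (SE) that did not pass (adjusted p = 0.172, edgeR). Which exons were removed is not given in the sources used here, and a count over the whole gene also takes reads from exons outside the removed part, so the count gives no check of the genotype. mKO and flox therefore mean libraries labelled so throughout. Summed over 6 muscle fibre markers, every library held between 105000 and 149000 CPM, and no marker of this list was at 0.

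Promoter sequences are shown for the Gadd45 paralogues, whose lower levels after reloading are described next, and for Cdkn1a, the inhibitor called higher with unloading in both genotypes. Each is the 250 bases before the RefSeq start on the gene's strand, from the GRCm38.p6 table, written 5′ to 3′. Of the 8 genes 7 matched that table; Cdkn1c did not. Capitals mark matches to the octamer ATTTGCAT, the CCAAT box, the TATA box TATAAA and the E-box CACGTG on either strand in the Gadd45 promoters, and to a p53 decamer in that of Cdkn1a.
Gadd45a, chr6:67037408-67037657, minus strand: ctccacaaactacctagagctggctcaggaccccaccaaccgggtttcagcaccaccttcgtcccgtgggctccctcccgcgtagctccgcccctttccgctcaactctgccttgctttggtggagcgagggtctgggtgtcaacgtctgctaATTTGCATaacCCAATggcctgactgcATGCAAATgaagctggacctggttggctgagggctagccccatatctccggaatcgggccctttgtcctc
Gadd45b, chr10:80929841-80930090, plus strand: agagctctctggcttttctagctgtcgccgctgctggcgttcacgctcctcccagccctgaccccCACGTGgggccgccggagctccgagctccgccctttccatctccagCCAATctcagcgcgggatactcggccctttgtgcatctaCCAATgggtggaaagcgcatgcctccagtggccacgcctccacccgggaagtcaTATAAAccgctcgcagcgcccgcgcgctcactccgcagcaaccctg
Gadd45g, chr13:51846425-51846674, plus strand: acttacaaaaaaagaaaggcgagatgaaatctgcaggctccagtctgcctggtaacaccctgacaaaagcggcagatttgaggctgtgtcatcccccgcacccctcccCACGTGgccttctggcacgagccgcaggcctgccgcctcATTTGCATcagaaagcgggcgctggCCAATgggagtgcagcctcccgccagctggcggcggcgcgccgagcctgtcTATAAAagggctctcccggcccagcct
Cdkn1a, chr17:29090729-29090978, plus strand: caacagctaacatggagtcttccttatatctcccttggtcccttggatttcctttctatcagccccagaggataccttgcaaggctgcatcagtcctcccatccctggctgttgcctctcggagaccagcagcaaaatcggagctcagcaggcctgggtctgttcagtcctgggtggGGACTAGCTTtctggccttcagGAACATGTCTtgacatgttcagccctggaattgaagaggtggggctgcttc

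Counting back from -1, the base before the start, the Gadd45a window holds the octamer at -97 and, on the other strand, at -70, on both sides of a CCAAT box at -86. The Gadd45g window holds 1 octamer at -103, a CCAAT box at -78, a TATA box at -27 and an E-box at -142. Gadd45b holds no octamer but has CCAAT boxes at -139 and -100, a TATA box at -46 and an E-box at -185. Of 32851 promoter windows of the same length, 1.6% hold the octamer, 33.8% a CCAAT box, 12.4% a TATA box and 6.02% the E-box. The Cdkn1a window at the first start holds p53 decamers at -73 and -51, a motif found in 7.13% of all windows, and the window of its second start at chr17:29093519-29093768 holds none. Single decamers were found also for Gadd45a at -40, Ccng1 at -185 and Mdm2 at -186. The motifs were searched by letters alone and do not overlap each other where capitals are shown. Searches for the FoxO site GTAAACA, the kB site (GGGA and CC with 4 bases between), the MEF2 site (CTA and TAG with 4 bases between) and the cAMP response element TGACGTCA, held by 3.17%, 17.6%, 3.2% and 1.55% of all windows, gave a FoxO match only in Mdm2 and kB matches only in Mdm2 and Gadd45g.

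Per kilobase of exon, Ccng1 was the most abundant of the 8, at 289 CPM per kb averaged over the 18 libraries. Gadd45g averaged 20.1, Gadd45b 17.6, Cdkn1b 15.1, Mdm2 12.9, Gadd45a 11.6, Cdkn1a 6.02 and Cdkn1c 5.31 CPM per kb. The ratio of the highest to the lowest library ordered them differently. It was 17.1 for Gadd45g, 5.58 for Gadd45b, 3.87 for Cdkn1a and 2.44 for Gadd45a, and below that for Cdkn1b (1.81), Ccng1 (1.74), Cdkn1c (1.62) and Mdm2 (1.39). The last 4 of these stayed within a narrow band, while Gadd45g, Gadd45b and Cdkn1a spanned several fold.

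**Figure D1:**
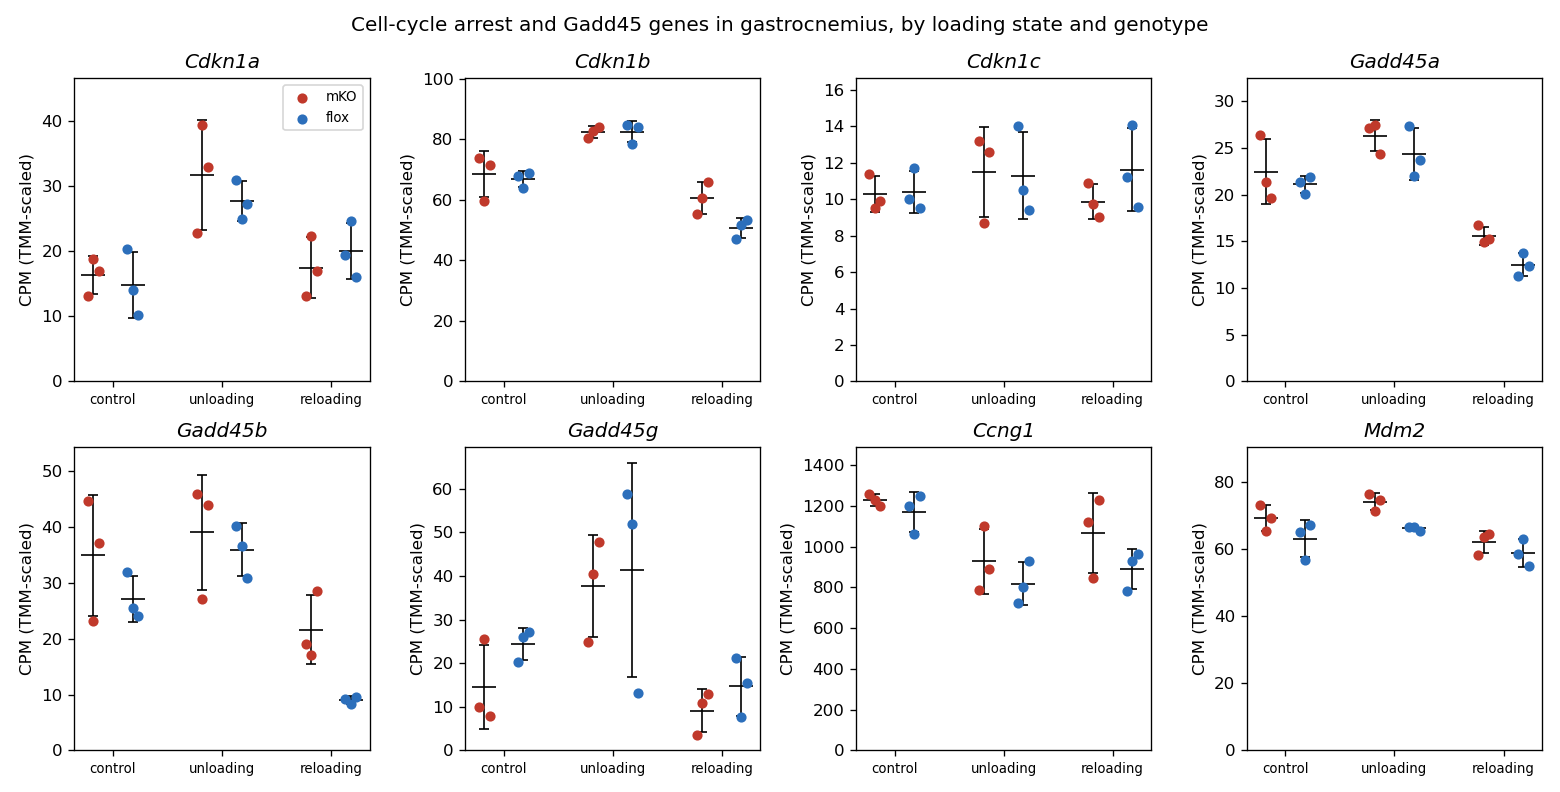
Level of each gene in CPM (TMM-scaled, y axis from 0) by loading state (x axis), 1 point per library, with mKO in red left of flox in blue; lines give the group mean and bars the SD (n = 3). Gadd45b after reloading shows the mKO points at 17 to 28.6 CPM, all above the flox points at 8.24 to 9.58 CPM.

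Among the Cip/Kip inhibitors, Cdkn1a roughly doubled in unloaded muscle of both genotypes. In mKO libraries it stood at 13.1, 18.8 and 17 CPM in controls, at 22.8, 39.5 and 33 CPM after unloading, and at 13.1, 22.4 and 17 CPM after reloading. In flox libraries it stood at 20.3, 14.1 and 10.2 CPM in controls, at 31, 25 and 27.3 CPM after unloading, and at 19.5, 24.7 and 16.1 CPM after reloading. Every unloaded library was above every control library of its own genotype. Cdkn1a was 1.95-fold higher after unloading in mKO muscle (log2 0.96 ± 0.24 SE, adjusted p = 0.0216) and 1.87-fold higher in flox muscle (0.90 ± 0.24, adjusted p = 0.0352), by edgeR's quasi-likelihood test with Benjamini-Hochberg adjustment over all tested genes. With reloading, it fell by 0.86 ± 0.24 on the log2 scale in mKO muscle relative to unloading (adjusted p = 0.0184), with a range that overlapped that of mKO controls. In flox muscle the corresponding change of -0.47 ± 0.24 did not pass (adjusted p = 0.151), although the reloaded libraries lay below the unloaded ones. The test of the difference between the genotypes did not pass either (-0.39 ± 0.34, adjusted p = 0.728). Each of these Cdkn1a calls was lost when certain single libraries were left out. For unloading in mKO muscle these were control library 1 or 3 and unloading library 2 or 3 (adjusted p up to 0.0936), and for unloading in flox muscle any but control library 1 (up to 0.137). For reloading in mKO muscle they were unloading library 2 or 3 and reloading library 1 or 3 (up to 0.0904).

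Cdkn1b, the p27 gene, moved less than Cdkn1a and with less spread between libraries. In mKO libraries it stood at 74, 59.8 and 71.6 CPM in controls, at 80.4, 82.9 and 84.2 CPM after unloading, and at 55.5, 60.7 and 66 CPM after reloading. In flox libraries it stood at 68, 63.8 and 68.9 CPM in controls, at 84.9, 78.6 and 84.2 CPM after unloading, and at 47, 51.7 and 53.4 CPM after reloading. Unloaded values lay above the control values, and reloaded values below the unloaded ones, in both genotypes. Unloading against control gave 0.27 ± 0.08 in mKO muscle, just short of the threshold (adjusted p = 0.0559), and a rise of 0.30 ± 0.08 in flox muscle (adjusted p = 0.0407). The mKO change was called by DESeq2 (adjusted p = 0.0251) and by edgeR with a replicate block (adjusted p = 0.0414). The difference between the genotypes in this change was -0.03 ± 0.12 and did not pass. The flox rise was lost without any single one of its 6 libraries (adjusted p up to 0.161). Reloading against unloading gave the most stable changes of the inhibitors: Cdkn1b fell by 0.44 ± 0.08 in mKO muscle (adjusted p = 0.00149) and by 0.70 ± 0.08 in flox muscle (adjusted p = 7.96e-06), whichever library was left out. In flox muscle it also fell below control, by 0.40 ± 0.08 (adjusted p = 0.00213), and the mKO change of -0.17 ± 0.08 against control did not pass (adjusted p = 0.328). The test of the difference between these changes did not pass either (0.23 ± 0.12, adjusted p = 0.429, edgeR).

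Cdkn1c, the imprinted p57 gene, showed no change that passed in any of the 12 comparisons. Its levels ran from 8.67 to 13.2 CPM over the 9 mKO libraries and from 9.4 to 14.1 CPM over the 9 flox libraries, and all 6 groups overlapped. Its largest loading change was -0.22 ± 0.17 for reloading against unloading in mKO muscle. With an SE of 0.17, a change of that size was not separable from the spread between libraries.

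The Gadd45 genes shared lower levels in reloaded than in unloaded muscle. Gadd45a, the paralogue best known in muscle atrophy, stood in mKO libraries at 26.4, 21.4 and 19.6 CPM in controls, 27.1, 27.5 and 24.4 CPM after unloading, and 16.7, 14.9 and 15.2 CPM after reloading. In flox libraries the values were 21.3, 20.1 and 21.9 CPM in controls, 27.4, 22 and 23.7 CPM after unloading, and 11.3, 13.8 and 12.4 CPM after reloading. All reloaded libraries were thus below all control and all unloaded libraries. 10 days of unloading gave differences from control of 0.23 ± 0.11 in mKO muscle and 0.21 ± 0.11 in flox muscle, neither of which passed (adjusted p = 0.204 and 0.295). Reloading lowered Gadd45a against unloading by 0.75 ± 0.11 in mKO muscle (log2 -0.75, adjusted p = 0.00016) and by 0.97 ± 0.11 in flox muscle (log2 -0.97, adjusted p = 4.77e-06). It also fell by 0.52 ± 0.11 against control in mKO muscle (adjusted p = 0.0184) and by 0.76 ± 0.11 in flox muscle (adjusted p = 0.000113). The mKO call against control was lost without mKO control library 1 or mKO reloading library 2, with adjusted p up to 0.1.

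Gadd45b differed between the genotypes after reloading. In mKO libraries it stood at 44.6, 23.2 and 37.1 CPM in controls, 46, 27.2 and 43.9 CPM after unloading, and 19.1, 17 and 28.6 CPM after reloading. In flox libraries it stood at 31.9, 25.5 and 24.1 CPM in controls, 40.2, 36.7 and 30.8 CPM after unloading, and 9.26, 8.24 and 9.58 CPM after reloading. The flox reloaded values were the lowest of the series and lay close together, while the mKO values spread more widely in every state. Reloading against unloading gave a fall of 1.99 ± 0.24 in flox muscle, to 0.251 of the unloaded level (adjusted p = 7.57e-06). In mKO muscle the fall was 0.86 ± 0.23, to 0.552 of the unloaded level (adjusted p = 0.0135), with ranges that overlapped and a call lost without unloading library 1 or 3 or reloading library 1 or 2 (adjusted p up to 0.0676). Against control, Gadd45b fell by 1.59 ± 0.24 in flox muscle (adjusted p = 0.000132), and the mKO change of -0.70 ± 0.23 did not pass (adjusted p = 0.114). DESeq2 did call this mKO fall (-0.69, adjusted p = 0.0408). So did edgeR without the low-count filter, and without mKO reloading library 3 (-0.95, adjusted p = 0.0448). RLE or total-count scaling, a replicate block and a fit of only the groups compared did not call it. Unloading against control passed in neither genotype (0.16 ± 0.22 in mKO muscle and 0.40 ± 0.23 in flox muscle).

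Gadd45g had the widest spread between libraries of a group. In mKO libraries it stood at 10, 25.5 and 7.81 CPM in controls, 24.9, 40.4 and 47.8 CPM after unloading, and 3.45, 10.9 and 12.9 CPM after reloading. In flox libraries it stood at 20.2, 25.9 and 27.1 CPM in controls, 58.9, 52 and 13.2 CPM after unloading, and 21.1, 7.58 and 15.5 CPM after reloading. The third unloaded flox library, at 13.2 CPM, lay below every flox control. The same library held 8.15 CPM summed over 5 neutrophil markers, against 1.03 and 0.703 CPM in the other unloaded flox libraries. Over 7 proliferation markers it held 4.7 CPM, against 1.63 and 1.53 CPM. The second unloaded mKO library held 3.73 CPM of the neutrophil markers, against 0.786 and 1.22 CPM, with Gadd45g at 40.4 CPM. The part of these cells in the Gadd45g values was not tested. Unloading against control gave 1.38 ± 0.52 in mKO muscle (adjusted p = 0.115) and 0.76 ± 0.51 in flox muscle (adjusted p = 0.438), so neither passed. Reloading against unloading gave a fall of 2.04 ± 0.54 in mKO muscle (adjusted p = 0.0133), to 0.242 of the unloaded level with no overlap. In flox muscle the fall was 1.49 ± 0.52 (adjusted p = 0.0366), with overlapping ranges. The mKO call was lost without unloading library 3 or reloading library 1 (adjusted p up to 0.0596), and the flox call without unloading library 1 or 2 or reloading library 2 or 3 (up to 0.153). Without the third unloaded flox library the flox adjusted p was 0.00623.

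**Figure D2:**
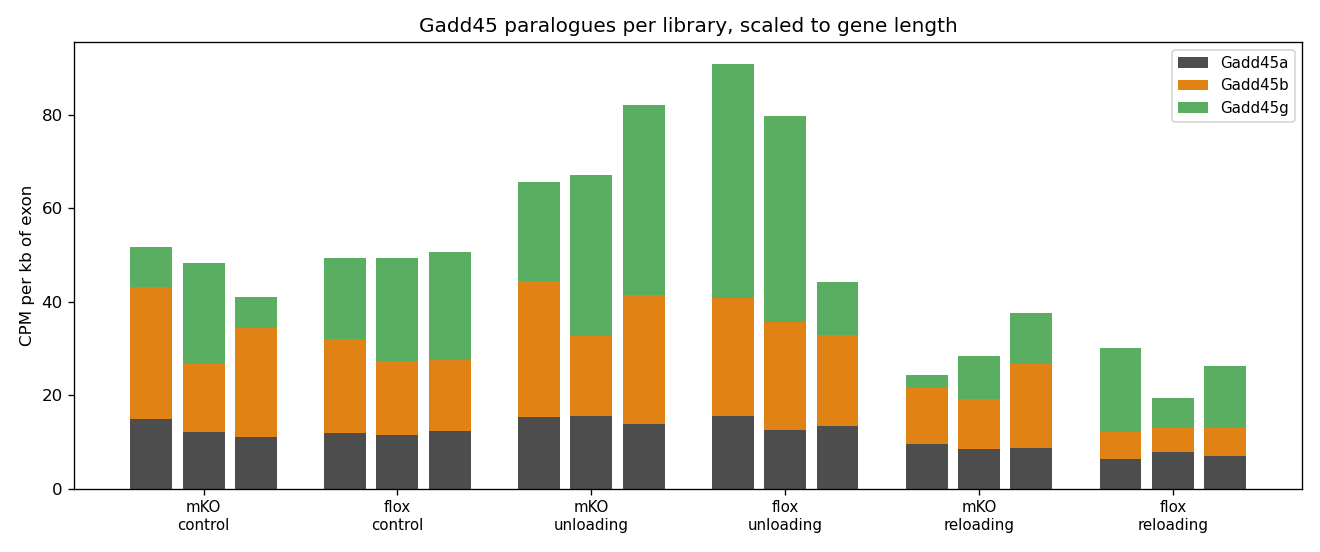
Stacked bars of Gadd45a, Gadd45b and Gadd45g in CPM per kb of exon (y axis) for each of the 18 libraries, grouped by loading state with mKO left of flox. The summed height averages 30.2 CPM per kb in reloaded mKO libraries and 25.3 in reloaded flox libraries, and the Gadd45b part is the smaller in the flox bars.

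Scaled to gene length, the 3 paralogues together averaged 47 ± 5.43, 71.6 ± 9.18 and 30.2 ± 6.77 CPM per kb in mKO controls, unloaded and reloaded muscle, and 49.8 ± 0.757, 71.7 ± 24.5 and 25.3 ± 5.45 CPM per kb in the same states of flox muscle (SD, n = 3 each). The family total overlapped between the genotypes in every state, and its difference between them was not tested. Gadd45b supplied 47.1 ± 14.7% of it in mKO and 34.3 ± 5.65% in flox controls, and 34.4 ± 9.37% in mKO and 33.5 ± 9.01% in flox muscle after unloading, with overlapping ranges. After reloading it supplied 44.9 ± 6.37% of the total in reloaded mKO libraries and 23 ± 3.69% in reloaded flox libraries, with ranges of 37.6 to 49.2% and 19.3 to 26.7%. Gadd45g supplied 24.7 ± 11.1% in reloaded mKO and 47.7 ± 13.4% in reloaded flox libraries, and 25.9 ± 16.4% in mKO and 41.7 ± 5.9% in flox controls. The shares are descriptive and were not tested.

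With unloading, Ccng1 moved opposite to Cdkn1a and Cdkn1b. In mKO libraries cyclin G1 stood at 1260, 1230 and 1200 CPM in controls, 789, 1100 and 892 CPM after unloading, and 1120, 848 and 1230 CPM after reloading. In flox libraries it stood at 1200, 1060 and 1250 CPM in controls, 721, 801 and 930 CPM after unloading, and 780, 927 and 963 CPM after reloading. Unloaded libraries lay below controls in both genotypes. Unloading against control gave a fall of 0.51 ± 0.14 in flox muscle (adjusted p = 0.0354), and the mKO change of -0.41 ± 0.14 did not pass (adjusted p = 0.0782). The mKO fall was called by DESeq2 (adjusted p = 0.0416), and by edgeR under total-count scaling (adjusted p = 0.0431) and without the low-count filter. RLE scaling, a replicate block and a fit of only the groups compared did not call it. The difference between the genotypes in this change was 0.10 ± 0.19 and did not pass. After reloading, Ccng1 remained lower than control in flox muscle, by 0.39 ± 0.14 (log2 -0.39, adjusted p = 0.0493), a call lost without any single one of the 6 libraries and under RLE or total-count scaling (adjusted p = 0.0531 and 0.147). The flox fall with unloading was lost without any of its libraries but unloading library 3, with adjusted p up to 0.16.

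Mdm2 barely moved. It ran from 58.1 to 76.4 CPM over the mKO libraries and from 54.8 to 67.1 CPM over the flox libraries. Its 1 call was a fall of 0.26 ± 0.08 in reloaded against unloaded mKO muscle (adjusted p = 0.0244), with 58.1, 63.4 and 64.3 CPM in reloaded and 76.4, 71.2 and 74.5 CPM in unloaded libraries, and it was lost under total-count scaling and without unloading library 1 or 3 or reloading library 1 (adjusted p up to 0.105). The flox change of -0.17 ± 0.08 did not pass (adjusted p = 0.0967). Mdm2, Ccng1, Gadd45a and Cdkn1a, all p53 targets, did not share a direction after unloading: 2 calls were rises of Cdkn1a and 1 was a fall of Ccng1.

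Unloading gave 4 calls among the 8 genes over both genotypes. In mKO muscle 1 of 8 was called, against 7.75% of all tested genes. In flox muscle 3 of 8 were called, against 5.74% of all genes. The median log2 change of the 8 was 0.20 in mKO muscle and 0.26 in flox muscle, beside -0.01 and 0 over all genes.

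Reloading gave more calls, all of them falls against unloading. In mKO muscle 6 of 8 fell, against 8.81% of all tested genes called lower and 18.3% called in either direction. In flox muscle 4 of 8 fell, against 14.9% called lower and 31.9% called either way. The members' medians were -0.60 in mKO muscle and -0.58 in flox muscle, beside 0.01 and 0 over all genes. Cdkn1b, Gadd45a, Gadd45b and Gadd45g were called lower in both genotypes. Against control, 1 of 8 was called in reloaded mKO muscle, against 2.18% of all genes (0.841% lower), and 4 of 8 were called in reloaded flox muscle, all lower, against 22.6% of all genes and 10.3% called lower. The unloaded libraries enter both the comparison with control and that with reloading, so a high unloaded value adds to both.

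**Figure D3:**
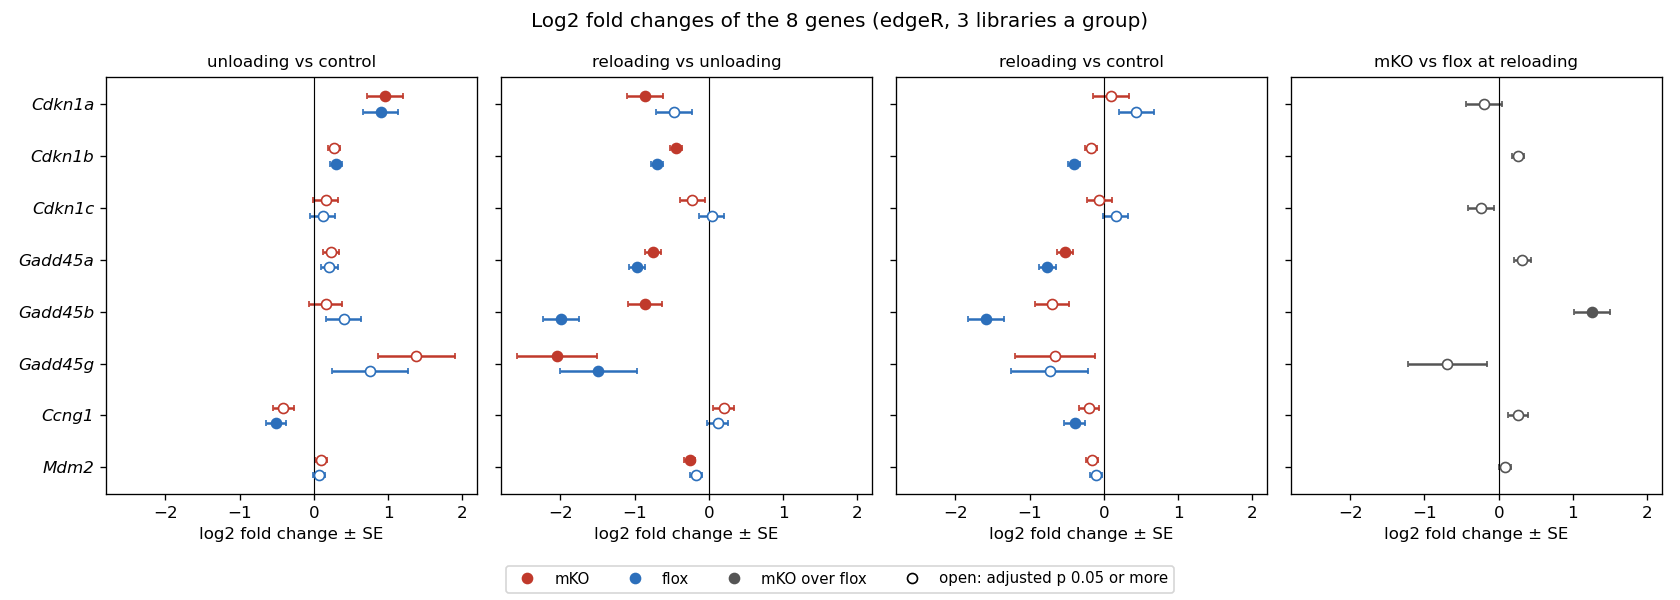
Log2 fold change with its SE (x axis) for each gene (rows) in 4 comparisons, mKO in red above flox in blue and mKO over flox in grey; filled points have an adjusted p under 0.05. In the reloading against unloading panel the filled points all lie left of 0, at values down to -2.04 in mKO and -1.99 in flox muscle.

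Between the genotypes, Gadd45b after reloading was the 1 call. It averaged 21.6 ± 6.16 CPM in libraries labelled mKO and 9.03 ± 0.697 CPM in libraries labelled flox (SD, n = 3 each), a 2.39-fold difference (log2 1.26 ± 0.24, adjusted p = 0.00588, edgeR) with no overlap. This 1 of 8 stands beside 4.91% of all genes called at reloading and 1.06% called higher. Without mKO reloading library 3, the highest at 28.6 CPM, the log2 difference was 1 and the adjusted p 0.0568. Cdkn1b (0.26 ± 0.08, adjusted p = 0.0815) and Gadd45a (0.32 ± 0.11, adjusted p = 0.101) were also higher in every reloaded mKO library than in any reloaded flox library, but did not pass. In controls and after unloading edgeR called 0 of 8 and 0% of all genes. At an unadjusted p under 0.05 those 2 comparisons held 718 and 816 genes, with 0 and 1 of the 8, the 1 being Mdm2 (0.16 ± 0.08), and DESeq2 called 1 gene and 0 genes, none of the 8.

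Whether the reloading response itself differed between the genotypes was tested by the interaction. For Gadd45b, the change from unloading to reloading was less negative in mKO than in flox muscle by 1.14 ± 0.32 on the log2 scale, which did not pass in edgeR (adjusted p = 0.202). edgeR called 0% of all genes in that interaction and 0 of the 8, with 1873 genes and 2 of the 8 at an unadjusted p under 0.05; Cdkn1b was the other (0.26 ± 0.12). DESeq2 called 165 genes there, Gadd45b among them (adjusted p = 0.0419). The authors' deposited table whose signed p-values follow this interaction gives Gadd45b a log2 value of 0.5, with an SE of 0.416 and an adjusted p of 0.0522. That table's log2 values lie nearer 0 than those of the counts for all 8 genes, so the sizes are not on the same scale. For reloading against control, the Gadd45b interaction was 0.89 ± 0.32 (adjusted p = 0.217), and 0 of the 8 were called beside 0.522% of all genes, with 1 of the 8 at an unadjusted p under 0.05 and none called by DESeq2. For unloading against control, edgeR and DESeq2 called 0 genes, and 733 genes but none of the 8 had an unadjusted p under 0.05.

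Markers of other cells moved with the reloading comparisons. Summed over 8 macrophage markers, reloaded mKO libraries held 88.4 to 129 CPM and reloaded flox libraries 183 to 272 CPM, beside 51.8 to 107 CPM in the mKO and 74.1 to 86.4 CPM in the flox libraries of the other states. Summed over 7 proliferation markers, reloaded mKO libraries held 10.6 to 15.7 CPM and reloaded flox libraries 48 to 65.5 CPM, beside at most 7.1 CPM in every other library. Of these, 7 of 8 macrophage and 7 of 7 proliferation markers were called lower in reloaded mKO than in reloaded flox muscle, and none was at 0 in a reloaded library. Over all genes 4.91% were called there, in either direction. Other lists moved less: 2 of 6 muscle fibre markers were called higher in reloaded mKO muscle (0 of 6 under total-count scaling), 2 of 4 fibro-adipogenic and 1 of 3 endothelial markers were called lower, and 0 of 3 tested neutrophil, 0 of 3 Schwann cell and 0 of 3 satellite cell markers were called by edgeR. At an unadjusted p under 0.05 these 3 lists held 1, 0 and 0 markers, and DESeq2 called 1, 0 and 0. The part of these cells in the levels of the 8 genes was not tested. In bulk RNA, fewer cells of a type and less RNA per cell cannot be told apart.

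Genes around the 8 showed the cell-cycle side of the same libraries. Of 9 G1/S cyclins and their kinases, 2 fell with unloading in mKO muscle and 1 in flox muscle. Beside this, 7.75% of all genes in mKO muscle and 5.74% in flox muscle were called, in either direction. Ccnd1, cyclin D1, fell by 1.24 ± 0.16 in mKO and by 1.61 ± 0.16 in flox muscle (adjusted p = 0.000256 and 6.63e-05). With reloading against unloading, 4 of 9 rose in mKO muscle and 8 of 9 in flox muscle, with medians of 0.43 and 0.64. Over all genes 18.3% and 31.9% were called in that comparison, in either direction. Ccnd1 rose by 1.77 ± 0.16 and 2.35 ± 0.16, and Ccna2, the S phase cyclin A2, by 2.12 ± 0.30 and 3.77 ± 0.28, in mKO and flox muscle. Cyclin A2 averaged 1.51 ± 0.514 CPM in reloaded mKO and 6.37 ± 1.88 CPM in reloaded flox libraries, a log2 difference of -2.08 ± 0.25 (adjusted p = 0.000408). Cdkn1b and the Gadd45 genes were thus lower, and the called G1/S genes higher, after reloading than after unloading in both genotypes.

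The other lists moved in part. Of 7 INK4 and retinoblastoma family genes, 6 were tested, since Cdkn2a did not pass the filter. With unloading edgeR called 0 of the 6 in either genotype, with 3 in mKO and 1 in flox muscle at an unadjusted p under 0.05. DESeq2 called 1 of the 6, Rb1, higher with unloading in mKO muscle, and 0 in flox muscle. Rbl2, the p130 gene of quiescent cells, fell with reloading against unloading by 0.60 ± 0.09 in mKO and 0.81 ± 0.09 in flox muscle. Cdkn2c, the p18 inhibitor gene, fell in mKO muscle by 0.47 ± 0.13 (adjusted p = 0.0201), and Rbl1, the p107 gene, rose in flox muscle by 0.59 ± 0.17 (adjusted p = 0.0121). The list thus went 0 up and 2 down in mKO muscle and 1 up and 1 down in flox muscle. Beside it 18.3% and 31.9% of all genes were called, so 2 of 6 in flox muscle was near the share of all genes. Of 22 regulators and targets of p53, 3 rose with unloading in mKO muscle and 1 in flox muscle. Beside this, 7.75% of all genes in mKO muscle and 5.74% in flox muscle were called, in either direction. Mdm4, the partner of Mdm2 that also restrains p53, rose in both, by 0.55 ± 0.08 and 0.50 ± 0.07 (adjusted p = 0.000352 and 0.00108), whereas Mdm2 was not called. Eda2r, a receptor gene, rose by 0.90 ± 0.23 (adjusted p = 0.0246) and Btg2, an antiproliferative gene, by 0.62 ± 0.19 (adjusted p = 0.0488, and 0.0676 under total-count scaling) in mKO muscle. With reloading against unloading, 1 of the 22 rose and 5 fell in mKO muscle, and 6 rose and 6 fell in flox muscle. The list medians were -0.19 and -0.02, and 18.3% and 31.9% of all genes were called. Under total-count scaling 4 of the 22 fell in mKO muscle. Plk3, a stress kinase, rose in flox muscle by 1.75 ± 0.30, and Trp53inp1, a p53-induced gene, fell in mKO muscle by 0.71 ± 0.17. The p53 list thus had no shared direction.

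A list of 11 genes held Gadd45 partners such as Pcna and Cdk1, the cyclin gene Ccnb1, and kinases of MAP kinase pathways. With reloading against unloading 5 of the 11 were called in mKO muscle (3 higher, 2 lower) and 6 in flox muscle (3 higher, 3 lower). The list medians were 0.04 and -0.08, and 18.3% and 31.9% of all genes were called. Cdk1, which Gadd45 proteins bind, rose by 3.28 ± 0.57 in mKO and 4.08 ± 0.49 in flox muscle, and its cyclin Ccnb1 by 2.98 ± 0.63 and 4.37 ± 0.49. Both were lower in reloaded mKO than in reloaded flox muscle, by log2 values of -1.88 ± 0.42 for Cdk1 and -2.83 ± 0.43 for Ccnb1. Map2k3, a p38 activating kinase, rose with unloading by 0.39 ± 0.11 in mKO and 0.50 ± 0.11 in flox muscle (adjusted p = 0.0322 and 0.0108). In mKO muscle Map2k6, another p38 activating kinase, fell with unloading by 0.89 ± 0.19 (adjusted p = 0.00984) and Cdk1 fell by 2.12 ± 0.61 (adjusted p = 0.04). Of the 11 listed genes, unloading thus called 1 higher and 2 lower in mKO muscle, and 1 higher and 0 lower in flox muscle. Over all genes 7.75% and 5.74% were called with unloading. A further list held 5 genes linked with Gadd45a in mouse muscle atrophy: Atf4, Foxo1, Foxo3, Hdac4 and Myog. Their order relative to Gadd45a was not tested. With unloading edgeR called 0 of the 5 in either genotype, beside 7.75% and 5.74% of all genes in mKO and flox muscle. With reloading against unloading it called 2 of the 5 in each genotype, beside 18.3% and 31.9% of all genes. With unloading 1 had an unadjusted p under 0.05 in mKO muscle and 0 in flox muscle, and DESeq2 called 1, Atf4, higher with unloading in mKO muscle and 0 in flox muscle. Myog, the myogenic factor myogenin, rose by 0.77 ± 0.26 in mKO and 2.08 ± 0.27 in flox muscle. Atf4, a stress transcription factor, fell by 0.51 ± 0.12 in mKO muscle, and Foxo3, a transcription factor of the atrophy programme, fell by 0.34 ± 0.09 in flox muscle. Under total-count scaling the mKO rise of Myog and the flox fall of Foxo3 missed the threshold (adjusted p = 0.0559 and 0.0785).

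Between the genotypes after reloading, the genes of these lists that edgeR called were all lower in mKO muscle, while DESeq2 also called Rbl2 higher. They were 1 of 9 G1/S genes, 1 of 6 INK4 and retinoblastoma genes and 1 of 22 p53 genes. In the Gadd45 partner and kinase list they were 3 of 11, and in the list linked with Gadd45a in atrophy 1 of 5. Over all genes 4.91% were called and 1.06% called higher, so calls were mostly lower there too. Beside Ccna2, Cdk1 and Ccnb1 the called list genes were Rbl1 (log2 -0.64 ± 0.17), Plk3 (-1.37 ± 0.29), Pcna, the replication clamp (-0.38 ± 0.08), and Myog (-1.10 ± 0.25). The G1/S and p53 counts were 3 and 4 under total-count scaling, all lower. Gadd45b was higher in the same reloaded mKO libraries, and a link between it and these genes was not tested.

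**Figure D4:**
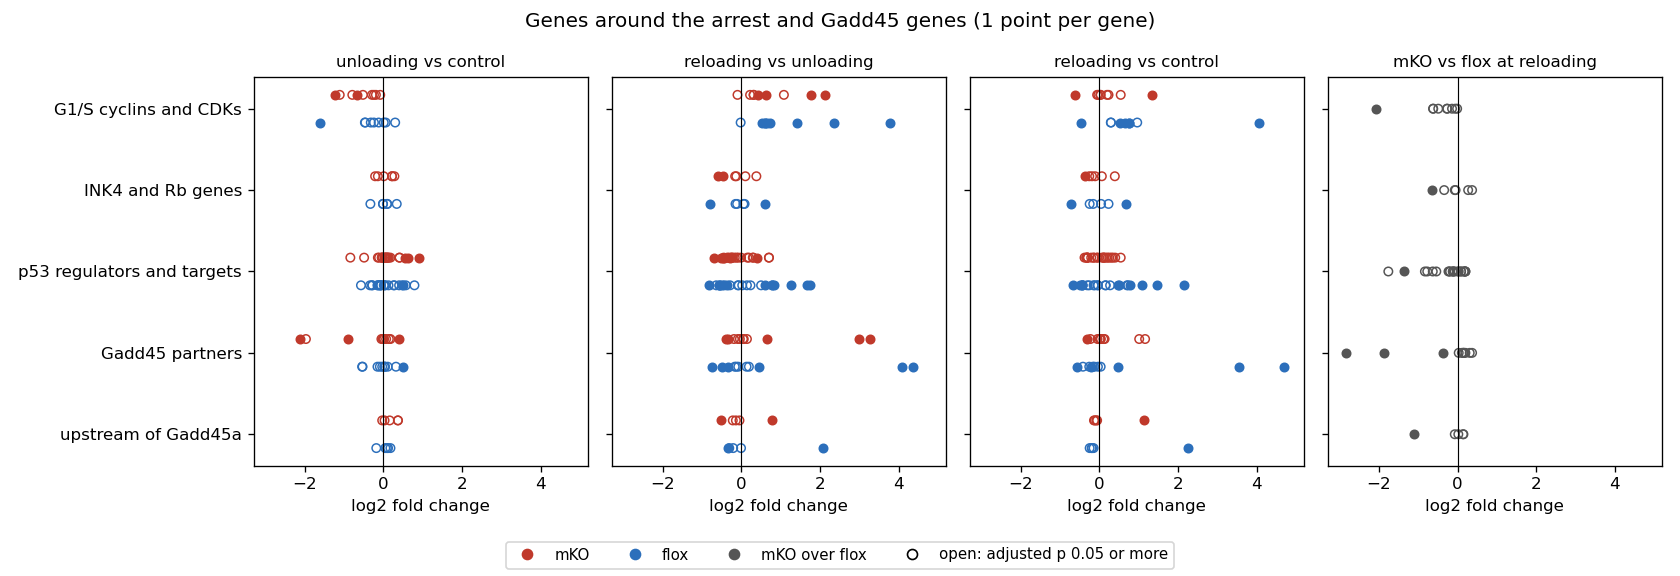
Log2 fold change (x axis) of each tested gene of 5 lists (rows), 1 point per gene, in 4 comparisons; mKO in red above flox in blue, mKO over flox in grey, filled where the adjusted p was under 0.05. The highest G1/S cyclin in the reloading against unloading panel is Ccna2, at 2.12 in mKO and 3.77 in flox muscle. The row labels are list names: the Gadd45 partner row also holds kinases, and the order of genes relative to Gadd45a was not tested.

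The genes whose log2 CPM followed each of the 8 most closely were searched among 12035 genes over the 18 libraries, and Pearson's r is given as a description, since libraries of a group share their state. Cdkn1b was closest to Nek7 (0.972) and Htatsf1 (0.958), and Gadd45a to Cbfb (0.961) and Zfp740 (0.957). Gadd45b was closest to Uaca (0.947) and Egln1 (0.94), a prolyl hydroxylase gene of oxygen sensing. For Gadd45g the closest were Arrdc2 (0.946) and Ddit4 (0.938), an mTORC1 inhibitor gene, and for Ccng1 Ndufs1 (0.958), a subunit of respiratory complex I, and Coa5 (0.943). Cdkn1a was closest to Il6st (0.884) and Sntb1 (0.878), Mdm2 to Vps37a (0.87) and Zfp354a (0.85), and Cdkn1c to Sap30bp (0.802) and Adprhl2 (0.783). The closest pair of genes differed for each of the 8.

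Some reads could belong to genes on the other strand, since the table's header shows no strand option. Cdkn1a shares 273 exon bases with AC167363.2, which held 72 counts in all beside 18491 for Cdkn1a. Gadd45a shares 337 exon bases with E230016M11Rik, with 1054 counts beside 17471. Cdkn1c shares 625 exon bases with Gm44732, which held 0 counts beside 9359. The other 5 genes share no exon bases with another gene in the table.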

How the data were processed

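Polyadenylated RNA of 18 gastrocnemius libraries, 3 in each of 6 groups, was sequenced. Per the submitters' processing notes, the aligner was STAR 2.7.3a, the build GRCm38.p6 and the counter featureCounts 2.0.3; per the file headers the counting was by featureCounts 1.6.4 with annotation release 94. The deposited table holds raw counts per gene, with no scaling. The deposited comparison tables hold, per the file headers, a mean signal over libraries, log2 fold changes and p-values, which the authors made with DESeq2; from these the log2 value, SE and p-values of Gadd45b are printed, and which comparison each table holds was read from the match of its p-values over all genes with those of the counts.

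Of 54532 genes, 54409 had a symbol and 17833 passed edgeR's filter. edgeR 4.0.16 in R 4.3.3 fitted 6 group means with TMM scaling (12 residual degrees of freedom, common dispersion 0.0197). 12 comparisons were tested by quasi-likelihood and adjusted by Benjamini-Hochberg over all tested genes, with calls at an adjusted p under 0.05. The SE was derived from the log2 fold change and its F statistic. log2 CPM used a prior count of 2. The procedure was run on simulated counts in which every gene had the common dispersion, so genes with a wider spread were not tried. limma 3.58.1 was loaded by edgeR, and DESeq2 1.42.0 was an alternative, beside RLE and total-count scaling, no filter, a fit of only the groups compared, a replicate block and leaving out each library. No library pair within a group was a duplicate, and pairs across groups were not checked.

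The 8 genes, the pathway lists and the marker lists were chosen with earlier results of these data known. Named list genes are up to 3 called genes by size per list and comparison; genes alike in pattern are the 2 with the highest r, searched where the mean over all libraries reached 1 CPM. Libraries were not treated as paired by replicate number. Deviations of libraries with the same number correlated at -0.0744 to 0.126, although 11 of 18 libraries were closest on average to their own number.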

Additional observations from a re-analysis of the deposited data

How the results depend on the processing

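Of 20 calls on the 8 genes, 16 held under all 6 other settings, 8 held without each single library and 8 held under all of these: Cdkn1b and Gadd45a for reloading against unloading in both genotypes, Gadd45b for the same in flox muscle, and Cdkn1b, Gadd45a and Gadd45b for reloading against control in flox muscle. Other settings lost Mdm2 (reloading against unloading, mKO) under total counts, no filter and a fit of only the groups compared, Gadd45a (reloading against control, mKO) under the last of these (adjusted p = 0.0779), and Ccng1 (reloading against control, flox) under RLE and total counts. Over 1296 refits of 96 values, 74 turned a sign, none of them of a called value; Gadd45g for reloading against control in mKO muscle ran from -1 to 0.03 over single libraries left out, with the turned sign without mKO control replicate 2.

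Over the 18 libraries each of the 8 genes held at least 9359 counts. Without the low-count filter edgeR estimated infinite prior degrees of freedom, against a median of 6 with it. The part of this in the calls gained without the filter was not tested. Members called then numbered 3 and 5 for unloading in mKO and flox muscle, 3 for reloading against control in mKO muscle, 1 between genotypes in controls, 2 between genotypes after reloading, and 1, 2 and 1 in the interactions for unloading, reloading against unloading and reloading against control. All genes called numbered 1651 for unloading in flox muscle, 1216 for reloading against control in mKO muscle, 148, 133 and 1557 between genotypes in controls, after unloading and after reloading, and 122, 564 and 755 in the interactions.

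DESeq2 called 3 members for unloading in mKO muscle, 2 for reloading against control in mKO muscle and 1 in the reloading against unloading interaction. It called 1545 genes for unloading in flox muscle, 878 for reloading against control in mKO muscle, 1 and 1380 between genotypes in controls and after reloading, and 165 and 477 in the reloading interactions. Fits of only the groups compared called 879 genes for unloading and 2107 for reloading against unloading in mKO muscle, 138 and 0 members for reloading against control in mKO muscle, and 443 between genotypes after reloading. Total counts gave 2 members for unloading in mKO muscle, 1485 genes between genotypes after reloading and 284 in the reloading against control interaction. They moved the median of all genes by 0.109 and 0.146 for reloading against unloading and against control in flox muscle, by -0.134 between genotypes after reloading and by -0.137 in the last interaction. The share of calls that were higher was then 71.8% against 53.3%, 80.5% against 54.3%, 2.42% against 21.6% and 0.704% against 4.3% with TMM, and 56.5% against 46.6% for unloading in flox muscle. The causes were not tested.

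With the replicate number as a block, 2 members were called for unloading in mKO muscle (Cdkn1b joining, adjusted p = 0.0414), Gadd45g for reloading against unloading in flox muscle missed the threshold (-1.43, adjusted p = 0.0539), and the reloading interactions called 10 and 143 genes. The labels give no meaning to the numbers, and the deviations of same-numbered libraries correlated at -0.0744 to 0.126, so the libraries were not treated as paired; 11 of 18 libraries correlated best, on average, with their own number, which is a hint from the data and not from the design.

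Leaving out single libraries gave 0 to 1 members and 508 to 1466 genes for unloading in mKO muscle, 0 to 1 and 364 to 801 in flox muscle, 2 to 5 and 2058 to 3245 for reloading against unloading in mKO muscle, 3 to 4 and 4241 to 5136 in flox muscle, 0 to 2 and 85 to 394 for reloading against control in mKO muscle, 3 to 3 and 2758 to 3642 in flox muscle, and 0 to 1 and 127 to 1630 between genotypes after reloading, the lowest without mKO reloading replicate 3. In the other 5 comparisons no member was called whichever library was left out; the reloading interactions then called 0 to 98 and 0 to 448 genes. Of 61 results on named list genes, all kept their sign under RLE and total counts; these were not refitted with libraries left out, and the scalings and DESeq2 were applied to the lists after seeing the data.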
